A study of Mus musculus with 9 samples.

Results

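The acute-phase genes described here were Lcn2, Saa1, Saa2, Saa3, Saa4, Orm1, Orm2, Orm3, Hp and Apcs. They were chosen by name, as the non-control probes whose RefSeq accession, read without its version, belonged to one of these 10 symbols. Each gene had 1 probe, so together they made up 10 of the 55681 non-control probes and 10 of the 20972 gene symbols on the array. All 10 passed the filter on dim probes, which left 26278 probes in all, and all 10 were well above background on each of the 9 arrays, with no saturated spot.

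The acute phase response is the change in the plasma proteins made by the liver that follows infection, injury or inflammation. Interleukin-6, through STAT3, and interleukin-1 and TNF, through NF-κB and C/EBP factors, raise the transcription of positive acute-phase genes in hepatocytes, while negative acute-phase proteins such as albumin and transthyretin fall. Among the members, Lcn2 encodes lipocalin 2, which withholds iron from bacteria by binding their siderophores and is made by neutrophils as well as by hepatocytes. Saa1 and Saa2 encode the inducible serum amyloid A proteins, which travel on high-density lipoprotein, Saa3 encodes a form also made by macrophages and adipocytes, and Saa4 encodes the constitutive form. Orm1, Orm2 and Orm3 encode orosomucoids, also called alpha-1-acid glycoproteins, Hp encodes the haemoglobin scavenger haptoglobin, and Apcs encodes serum amyloid P, the main acute-phase pentraxin of the mouse.

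Liver RNA was measured in 3 groups of 3 male C57B/6J mice at 20 weeks of age, with 1 array per mouse. STAM mice, a model of diabetes with steatohepatitis that goes on to liver cancer, were injected with streptozotocin as newborns and then fed a high-fat diet. Of these, STAM-NON mice received no insulin, STAM-INS mice were injected with insulin glargine in doses set by blood glucose, and Normal mice had neither streptozotocin nor the high-fat diet. The comparisons asked how the diabetic livers differed from Normal livers and how they differed with insulin. Whether the pieces of STAM liver held tumour is not stated in the sources used here.

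The 3 arrays of a group correlated with r between 0.979 and 0.991 across tested probes, and 46.2% to 65.0% of spots per array were well above background. All 10 hepatocyte markers were well above background on all 9 arrays, and none of the 9 arrays detected the adipocyte hormone Lep. All 6 STAM arrays lay on 1 slide and all 3 Normal arrays on another, so slide and group cannot be told apart in any comparison with Normal mice. On the STAM slide, row 1 held all 3 STAM-NON arrays and STAM-INS 1, and row 2 held STAM-INS 2 and 3. Nothing says that the mice came from separate litters or cages, so p-values measure the spread between these mice. Values are log2 of the background-subtracted spot intensity minus the 75th percentile of that array, called centred log2 signal, so that a difference of 1 is a 2-fold difference, and levels of different genes are not compared. In whole liver, fewer cells of a type and less RNA per cell cannot be told apart.

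Lcn2, Saa1 and Saa2 had the largest differences from Normal livers among the 10 genes in both STAM groups. In STAM-NON livers Lcn2 was 28.9-fold and Saa2 4.13-fold higher than in Normal livers, and in STAM-INS livers Lcn2 was 55.3-fold, Saa1 23.8-fold and Saa2 23.0-fold higher. Saa4, the constitutive form, lay the other way, lower in all 6 STAM mice than in all 3 Normal mice, although its difference did not pass the test. All 10 genes had a higher mean in STAM-INS than in STAM-NON livers, by 2.77 for Saa1 and 2.48 for Saa2 on the log2 scale and by 0.21 to 1.04 for the other 8, and none of these differences passed the threshold.

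A gene was called when its limma p-value, adjusted over the 26278 probes by the Benjamini-Hochberg method, was under 0.05. For STAM-NON against Normal, limma called 2 of 10 members higher, Lcn2 and Saa2, where 6.3% of all probes were called higher. None was called lower, where 9.76% of all probes were. Saa4 was the only member lower at an unadjusted p under 0.05 (limma unadjusted p 0.0314), which 35.8% of all probes had in either direction. All 3 STAM-NON values lay above all 3 Normal values for 6 members, against 13.2% of all probes, and below them for Saa4, against 28% of all probes. For STAM-INS against Normal, limma called 5 of 10 members higher, namely Lcn2, Saa1, Saa2, Saa3 and Apcs, against 5.16% of all probes. None was called lower, also without adjustment, while 8.72% of all probes were called lower. The STAM-INS and Normal values did not overlap for any member, with 9 members higher, against 15.1% of all probes, and Saa4 lower, against 29% of all probes. For STAM-INS against STAM-NON, limma called 0 of 10 members, where it called 0.0913% of all probes. At an unadjusted p under 0.05 limma gave 2 members, Saa1 and Saa2, against 8.78% of all probes, and these were also the 2 members whose groups did not overlap, against 7.24% of all probes that lay higher without overlap. The methods' t-test gave 2 members unadjusted and 0 after adjustment in that comparison. With slide row as a block, limma called 0 members in STAM-NON and 3 in STAM-INS livers against Normal ones, although row and group were then told apart only through the STAM-INS arrays. With 3 mice a group, an exact permutation test of 1 gene cannot give a two-sided p below 0.1, a value that 7 members had for STAM-NON against Normal, 10 for STAM-INS against Normal, and 2, Saa1 and Saa2, for STAM-INS against STAM-NON.

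**Figure D1:**
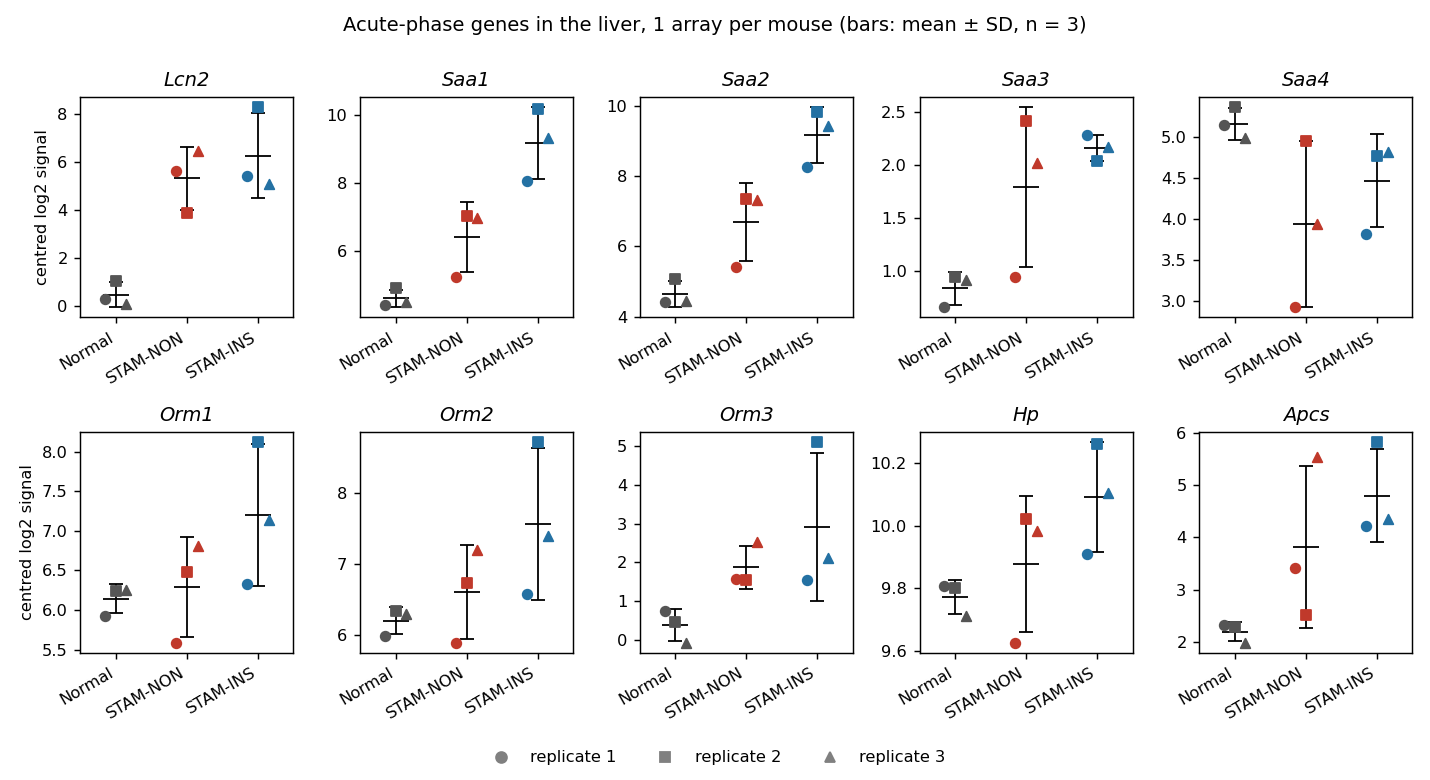
Centred log2 signal of the 10 acute-phase genes in each mouse, with 1 panel per gene and its own vertical axis. Points are mice (the symbol gives the replicate number) and bars are the mean ± SD of 3 mice. Lcn2 is above all Normal values in all 6 STAM mice, Saa1 and Saa2 step up from Normal to STAM-NON to STAM-INS, and Saa4 is lower in the 6 STAM mice.

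Lcn2 had centred log2 signals of 0.29, 1.06 and 0.09 in Normal mice 1 to 3. In STAM-NON mice 1 to 3 the values were 5.63, 3.90 and 6.47, and in STAM-INS mice 1 to 3 they were 5.42, 8.31 and 5.07. The lowest STAM value, in STAM-NON 2, was 2.83 above the highest Normal value, while the 2 STAM groups overlapped. STAM-NON exceeded Normal by 4.85 (SE 0.91, limma adjusted p 0.0163) and STAM-INS exceeded Normal by 5.79 (SE 0.91, limma adjusted p 0.00773). The call against Normal in STAM-NON was lost without STAM-NON 1 (4.70, limma adjusted p 0.0511), without Normal 1 (4.75, limma adjusted p 0.0531) and without Normal 3 (4.66, limma adjusted p 0.0581), with little change in the size of the difference. STAM-INS and STAM-NON differed by 0.94, with a 95% interval from -1.14 to 3.01 (limma adjusted p 0.810). That difference rested on STAM-INS 2, the highest of the 9 mice, and was -0.083 without it.

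Neutrophil transcripts were measured beside Lcn2 because neutrophil granules also hold lipocalin 2. Of 13 neutrophil markers, 12 had a probe and 8 were tested. Their mean centred log2 signal ran from -2.02 to -1.77 in Normal, from -1.46 to 3.31 in STAM-NON and from -0.59 to 1.17 in STAM-INS mice, with STAM-NON 3 far above the others. The granule genes Ltf, Ngp, Mmp8 and the chemokine receptor Cxcr2 did not pass the filter on dim probes, and Ly6g had no probe with that symbol. Ltf, Ngp, Mmp8 and Cxcr2 were each well above background on 2 of 3 STAM-NON arrays. On Normal arrays Ngp was so on 1 of 3 and Ltf, Mmp8 and Cxcr2 on 0 of 3. Ltf read -2.63, -4.36 and 2.55 in STAM-NON mice 1 to 3, and -5.81, -6.04 and -6.23 in Normal mice 1 to 3. Limma called 0 of 8 markers for STAM-NON against Normal, with 5 at an unadjusted p under 0.05, where 35.8% of all probes were. Of these, Prtn3, Retnlg, S100a8 and S100a9 were higher and Elane was lower (-0.36, limma unadjusted p 0.0147). The largest differences were those of the peroxidase gene Mpo and the protease gene Prtn3 (3.27, limma adjusted p 0.111). The Mpo mean was at least 4.40-fold higher (limma adjusted p 0.175, detected on 2 of 3 STAM-NON and no Normal arrays), with -2.21, -5.68 and 2.60 in STAM-NON mice 1 to 3. S100a8 (3.12) and S100a9 (3.09) were above background on all 9 arrays, and their STAM-NON and Normal values did not overlap. For STAM-INS against Normal, Prtn3 rose by 5.14 (limma adjusted p 0.0362, detected on 1 of 3 Normal arrays) and Elane, which encodes neutrophil elastase, fell by 0.59 (limma adjusted p 0.0179). Without STAM-NON 3, the Lcn2 difference between STAM-NON and Normal livers was 4.28 (limma adjusted p 0.0471). The part of neutrophils in the Lcn2 values was not tested.

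**Figure D2:**
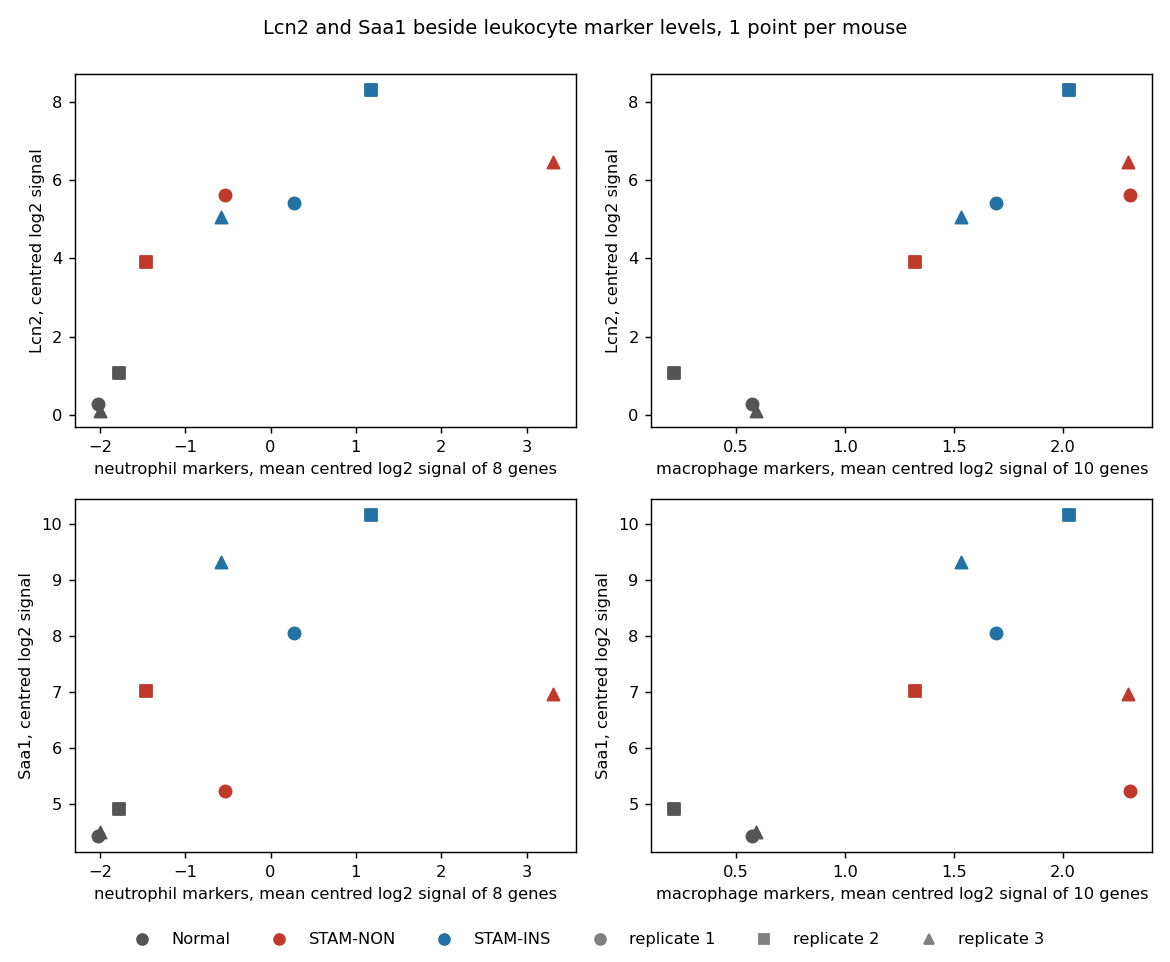
Centred log2 signal of Lcn2 (top) and Saa1 (bottom) against the mean centred log2 signal of 8 neutrophil markers (left) and 10 macrophage markers (right), with 1 point per mouse, coloured by group. STAM-NON 3 has the highest neutrophil mean, 3.31, with an Lcn2 signal of 6.47, while the highest Lcn2 and Saa1 signals are in STAM-INS 2.

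Saa1 read 4.43, 4.90 and 4.50 in Normal mice 1 to 3, 5.23, 7.02 and 6.97 in STAM-NON mice 1 to 3, and 8.06, 10.16 and 9.32 in STAM-INS mice 1 to 3. Saa2 read 4.41, 5.08 and 4.45 in Normal, 5.42, 7.35 and 7.31 in STAM-NON, and 8.27, 9.82 and 9.42 in STAM-INS mice in the same order. For both genes the 3 groups were stacked without overlap, with STAM-NON 1 closest to the Normal mice and STAM-INS 1 the lowest of its group. STAM-NON exceeded Normal by 2.05 for Saa2 (SE 0.57, limma adjusted p 0.0456) and by 1.80 for Saa1 (SE 0.60, limma adjusted p 0.0731). The Saa2 call did not hold without any one of 7 mice, with limma adjusted p from 0.0514 to 0.122, and held without STAM-NON 1 or STAM-INS 1. Against Normal, STAM-INS was higher by 4.57 for Saa1 (SE 0.60, limma adjusted p 0.00431) and by 4.52 for Saa2 (SE 0.57, limma adjusted p 0.00387), and each call held under all 23 alternatives run. Not all of these were separate: the adjusted p under 0.1 used the same fit. Slide row as a block gave the same 2157 calls over all probes as leaving out STAM-INS 1.

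Between the STAM groups, Saa1 was 6.84-fold higher with insulin (log2 difference 2.77, 95% interval 1.40 to 4.15, unadjusted p 0.00150 and limma adjusted p 0.311). Saa2 was 5.57-fold higher (log2 difference 2.48, 95% interval 1.17 to 3.79, unadjusted p 0.00222 and limma adjusted p 0.329). These limma intervals and p-values use 1 spread per gene shared by all 3 groups, and the Normal SD was smaller than that of either STAM group. For Saa1 the SD was 0.26 in Normal, 1.02 in STAM-NON and 1.06 in STAM-INS mice. The methods' t-test, which uses only the 2 STAM groups, gave an unadjusted p of 0.0308 for Saa1 and 0.0350 for Saa2. Leaving out 1 mouse kept the Saa1 difference between 2.18 and 3.33 and the Saa2 difference between 1.84 and 2.93, with no call. Within row 1 of the slide, where only STAM-INS 1 stood against the 3 STAM-NON mice, the difference was 1.65 for Saa1 and 1.58 for Saa2, so that it was smaller by over 1.5 times there. The deposited files hold no probe sequences, and the Saa1 and Saa2 transcripts are near copies, so the 2 probes may share signal and are not independent measurements.

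The promoters of Lcn2, Saa1, Saa2 and Saa4 are shown because Saa1 and Saa2 lay above the Normal mice in all 6 STAM mice while Saa4 lay below them. Sequences are the 250 bases before the transcription start from RefSeq on GRCm38.p6, which held 8 of the 10 members (not Hp or Orm1). They are written 5′ to 3′ on the gene's own strand, with motif matches in capitals. The motifs searched on both strands were TTGCNNAA for C/EBP, GGGANNNTC for NF-κB and TTCNNNGAA for STAT.
Lcn2, chr2:32387740-32387989, minus strand: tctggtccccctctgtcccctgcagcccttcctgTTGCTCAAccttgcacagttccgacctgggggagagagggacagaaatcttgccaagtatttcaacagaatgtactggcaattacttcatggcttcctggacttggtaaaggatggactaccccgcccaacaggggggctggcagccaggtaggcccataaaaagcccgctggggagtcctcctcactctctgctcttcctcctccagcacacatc
Saa1, chr7:46742981-46743230, minus strand: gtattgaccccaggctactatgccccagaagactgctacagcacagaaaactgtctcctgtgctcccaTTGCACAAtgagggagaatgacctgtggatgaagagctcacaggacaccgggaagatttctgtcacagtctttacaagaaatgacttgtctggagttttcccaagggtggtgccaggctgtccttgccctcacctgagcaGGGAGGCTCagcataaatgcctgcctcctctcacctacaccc
Saa2, chr7:46751583-46751832, plus strand: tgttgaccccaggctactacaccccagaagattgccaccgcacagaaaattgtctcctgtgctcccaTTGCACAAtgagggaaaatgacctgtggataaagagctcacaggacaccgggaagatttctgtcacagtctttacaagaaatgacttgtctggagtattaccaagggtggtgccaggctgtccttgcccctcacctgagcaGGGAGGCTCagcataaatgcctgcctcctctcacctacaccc
Saa4, chr7:46732604-46732853, minus strand: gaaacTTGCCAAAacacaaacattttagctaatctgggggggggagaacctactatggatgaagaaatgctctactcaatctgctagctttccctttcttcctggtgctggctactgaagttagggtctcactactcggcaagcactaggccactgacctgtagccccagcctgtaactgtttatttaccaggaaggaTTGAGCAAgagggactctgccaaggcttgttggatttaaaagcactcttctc
Saa1 and Saa2 shared 238 of 250 aligned bases (95.2%), against 148 of 250 (59.2%) for Saa1 and Saa4. Both Saa1 and Saa2 held the C/EBP match TTGCACAA and the NF-κB match GGGAGGCTC, the second ending 34 bases before the start. Lcn2 held 1 C/EBP match, TTGCTCAA, and Saa4, which lay lower in STAM mice, held 2. Of the others, Saa3, Orm2 and Orm3 held 1 C/EBP match each and Apcs held a STAT match. Among 32851 promoters of the same length, 9.56% held the C/EBP letters, 12.2% the NF-κB letters and 7.02% the STAT letters. The matches describe letters in this window and say nothing of binding in these livers.

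Saa3, the form that macrophages also make, read 0.66, 0.95 and 0.92 in Normal mice 1 to 3, 0.95, 2.41 and 2.02 in STAM-NON, and 2.28, 2.03 and 2.17 in STAM-INS mice. The STAM-INS mice lay close together (SD 0.12), and STAM-NON 1 lay within 0.0050 of the highest Normal mouse. STAM-INS exceeded Normal by 1.32 (SE 0.32, limma adjusted p 0.0333), while STAM-NON exceeded Normal by 0.95 (SE 0.32, limma adjusted p 0.0762), and by 1.37 without STAM-NON 1 (limma adjusted p 0.0130). The STAM-INS call was lost without any one of the STAM-INS or Normal mice, with limma adjusted p from 0.0781 to 0.0971. STAM-INS and STAM-NON differed by 0.37 (95% interval -0.37 to 1.11).

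The mean level of 10 tested macrophage markers ran from 0.22 to 0.59 in Normal, 1.32 to 2.30 in STAM-NON and 1.53 to 2.02 in STAM-INS mice, without overlap between STAM and Normal mice. For STAM-NON against Normal, 4 of 10 were called higher by limma, with Trem2, a receptor of lipid-associated macrophages, up by 2.93 (limma adjusted p 0.0122), Cd5l by 1.33, the Kupffer cell lectin Clec4f by 0.97, and Gpnmb at least 4.32-fold higher, since it was not well above background in any Normal mouse. Trem2, Cd5l and Clec4f were called for STAM-INS against Normal too, and none was called for STAM-INS against STAM-NON, where Gpnmb differed by -1.69 (limma adjusted p 0.620, detected on 1 of 3 STAM-INS arrays), Itgam by 0.44 (limma adjusted p 0.480), and 1 of 10 markers had an unadjusted p under 0.05. The part of macrophages in the Saa3 values was not tested.

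Saa4 read 5.13, 5.36 and 4.98 in Normal mice 1 to 3, 2.93, 4.94 and 3.94 in STAM-NON, and 3.82, 4.77 and 4.81 in STAM-INS mice. Every STAM mouse lay below every Normal mouse, though STAM-NON 2 was only just below Normal 3. The difference was -1.22 for STAM-NON against Normal (SE 0.47, limma adjusted p 0.106) and -0.69 for STAM-INS against Normal (SE 0.47, limma adjusted p 0.339). Without STAM-NON 2 the first of these was -1.72 and was called (limma adjusted p 0.0219). STAM-INS lay 0.53 above STAM-NON (95% interval -0.55 to 1.61).

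**Figure D3:**
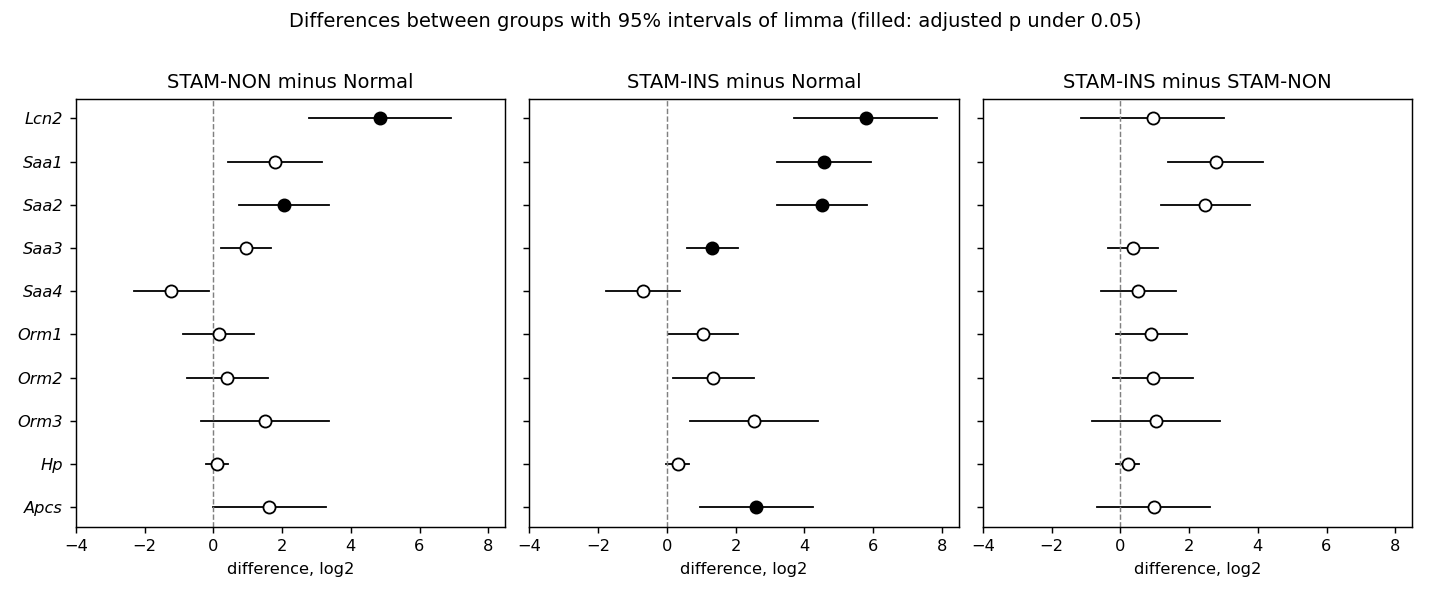
Difference between groups on the log2 scale for each acute-phase gene (points) with its 95% interval from limma (lines), in 3 panels, 1 per comparison. Filled points have an adjusted p under 0.05: Lcn2 and Saa2 on the left, Lcn2, Saa1, Saa2, Saa3 and Apcs in the middle, and none on the right, where the intervals of Saa1 and Saa2 alone exclude 0. Each interval uses 1 spread per gene shared by the 3 groups.

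No orosomucoid passed the test in any of the 3 comparisons. Orm1 read 5.93, 6.24 and 6.25 in Normal mice 1 to 3, 5.59, 6.48 and 6.81 in STAM-NON, and 6.33, 8.12 and 7.13 in STAM-INS mice. Orm2 read 5.99, 6.34 and 6.29 in Normal, 5.90, 6.74 and 7.20 in STAM-NON, and 6.59, 8.71 and 7.39 in STAM-INS mice. In both, STAM-NON 1 was below all Normal mice, the other 5 STAM mice were above them, and STAM-INS 2 was highest. STAM-NON and Normal differed by 0.41 for Orm2 (95% interval -0.77 to 1.58) and by 0.15 for Orm1 (95% interval -0.88 to 1.18), a value that fell to -0.00082 with arrays centred on their median and to -0.10 without STAM-NON 3. For STAM-INS against Normal the differences were 1.05 for Orm1 (limma adjusted p 0.146) and 1.35 for Orm2 (limma adjusted p 0.110). Orm1 and Orm2 are close paralogues, and their probes may share signal.

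Orm3 read 0.74, 0.47 and -0.07 in Normal mice 1 to 3, 1.57, 1.54 and 2.51 in STAM-NON, and 1.54, 5.10 and 2.10 in STAM-INS mice. All 6 STAM mice were above the Normal mice, but STAM-INS 2 stood 2.59 above the next mouse. STAM-NON exceeded Normal by 1.49 (SE 0.81, limma adjusted p 0.218) and STAM-INS by 2.54 (SE 0.81, limma adjusted p 0.0718). Without STAM-INS 2, the STAM-NON difference was called (limma adjusted p 0.0315), and the difference between the STAM groups went from 1.04 to -0.053.

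Haptoglobin had the smallest differences from Normal livers of the 10 genes in both STAM groups. Hp read 9.81, 9.80 and 9.71 in Normal mice 1 to 3, 9.63, 10.02 and 9.98 in STAM-NON, and 9.91, 10.26 and 10.10 in STAM-INS mice, a range of 0.64 over the 6 STAM mice. The 95% interval was -0.22 to 0.43 for STAM-NON against Normal, where the difference of 0.10 became -0.048 with arrays centred on their median, and -0.0097 to 0.65 for STAM-INS against Normal. The processed intensities of Hp, before scaling, ran from 188858 to 312638 with no saturation flag.

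Serum amyloid P was called in STAM-INS livers only, and the STAM groups were not shown to differ in it. Apcs read 2.32, 2.28 and 1.99 in Normal mice 1 to 3, 3.41, 2.52 and 5.54 in STAM-NON, and 4.22, 5.82 and 4.35 in STAM-INS mice. All 6 STAM mice were above the Normal mice, STAM-NON 2 by 0.20 only. STAM-INS exceeded Normal by 2.60 (SE 0.72, limma adjusted p 0.0476), or 6.06-fold, and STAM-NON by 1.62 (SE 0.72, limma adjusted p 0.144). The STAM-INS call was close to the threshold and was lost without STAM-NON 1 and without any one of the STAM-INS or Normal mice, with limma adjusted p from 0.0595 to 0.147. It was also lost with spike-in centring, the percentile over detected probes or quantile normalisation, with limma adjusted p from 0.0520 to 0.0542. No filter on dim probes, the replicate block, slide row as a block and the methods' t-test after adjustment lost it too. It was thus lost under 14 of 23 alternatives, with an adjusted p up to 0.155.

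The SD between mice was larger in both STAM groups than in the Normal group for each of these genes except Saa3, whose SD was 0.12 in STAM-INS and 0.16 in Normal mice. The median SD over the 10 genes was 0.19 among Normal mice, 0.88 among STAM-NON mice and 0.89 among STAM-INS mice, where the medians over all tested probes were 0.16, 0.23 and 0.18. STAM-INS 2 was the highest STAM mouse for 8 of 10 genes, the exceptions being Saa3 and Saa4, for which STAM-NON 2 was highest. STAM-NON 1 was the lowest STAM mouse for 7 genes, and STAM-NON 2 for the other 3, Lcn2, Orm3 and Apcs. The median signed difference of the 10 genes from their Normal means was 0.36, 0.85 and 1.66 in STAM-NON mice 1 to 3 and 1.30, 3.06 and 1.53 in STAM-INS mice 1 to 3. The mice did not order the genes alike: STAM-NON 2 had the lowest Lcn2 of the STAM mice and the highest Saa1 of its group.

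**Figure D4:**
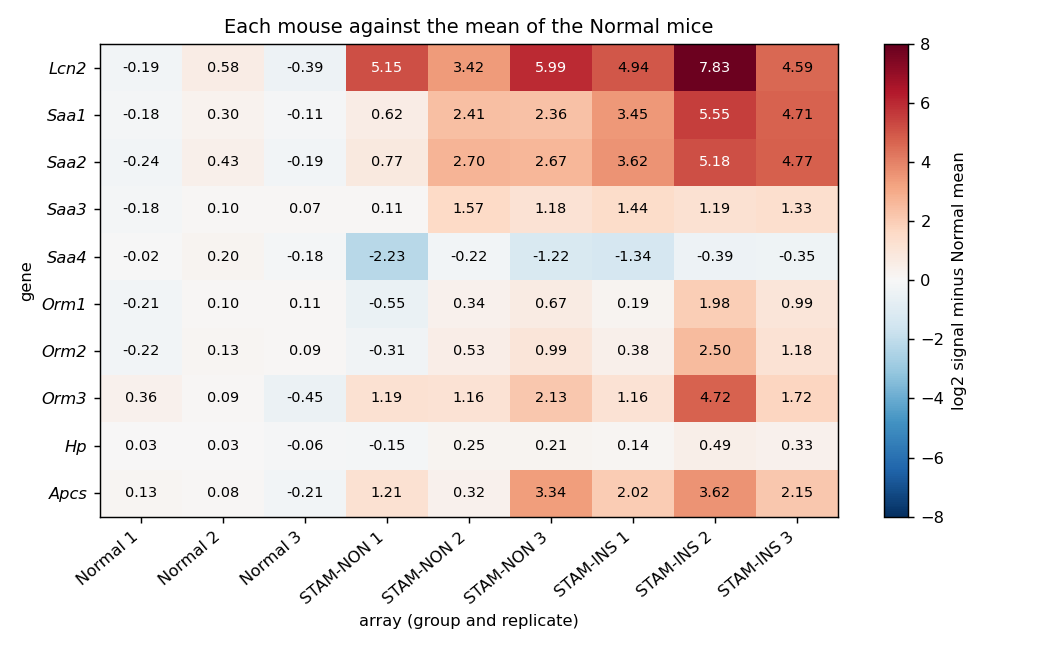
Centred log2 signal of each acute-phase gene (rows) in each mouse (columns) minus the mean of the 3 Normal mice, printed in each cell and coloured from blue (lower) to red (higher). Lcn2 is 3.42 to 7.83 above the Normal mean in the STAM mice, Saa1 and Saa2 are 3.45 to 5.55 above it in the STAM-INS mice, and Saa4 is below it in all 6.

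Across the 6 STAM mice, Lcn2 varied with Orm3 (Pearson's r 0.89) and Apcs (r 0.88), less with Orm2 (r 0.70), Orm1 (r 0.64), Saa1 (r 0.46), Hp (r 0.40) and Saa2 (r 0.39), with r at -0.041 for Saa4 and -0.19 for Saa3. Of 13385 other genes, the closest to Lcn2 were Cenpa (r 0.993), a centromere histone, Ggct (r 0.988), an enzyme of glutathione breakdown, Pdzk1ip1 (r 0.985), Aspm (r 0.981), a protein of the mitotic spindle, and Mmgt2 (r 0.981). These values describe 6 mice of 2 groups on 1 slide, of which STAM-INS 2 was the highest for Lcn2, and 29 genes had an r above 0.95.

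Apart from the members, 19 other positive acute-phase genes were all tested. Their median difference was 0.033 for STAM-NON against Normal, 0.49 for STAM-INS against STAM-NON and 0.56 for STAM-INS against Normal, where the members had medians of 1.22, 0.94 and 1.94 and all probes -0.13, 0.025 and -0.093. Of the 19, 18 had a higher mean in STAM-INS than in STAM-NON livers, where 54.9% of all probes did. Limma called none, with 3, Crp, Fga and Fgb, at an unadjusted p under 0.05. The largest differences among the 19 were 1.07 for the fibrinogen gene Fga (limma adjusted p 0.543) and 0.85 for the metallothionein gene Mt2 (limma adjusted p 0.883). For STAM-NON against Normal, limma called 2 of 19 higher and none lower: Cd14, the lipopolysaccharide co-receptor, by 1.51 (limma adjusted p 0.0450), and Il1rn, the interleukin-1 receptor antagonist, at least 1.83-fold (limma adjusted p 0.0474), since it was not well above background in any Normal mouse. The Cd14 call was lost under 14 of 23 alternatives and the Il1rn call under 17 of 22. For STAM-INS against Normal, Cd14 was called again, by 1.69 (limma adjusted p 0.0347). Hamp, which encodes the iron hormone hepcidin and is named here after its values were seen, differed by -4.68 for STAM-NON against Normal (limma adjusted p 0.245), with 5.46, 4.62 and -2.54 in STAM-NON and 7.20, -3.01 and 3.43 in STAM-INS mice, against 7.89, 7.44 and 6.26 in Normal mice.

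All 8 negative acute-phase genes had a lower mean in STAM-NON than in Normal livers, with a median of -0.25, where 36.8% of all probes had a higher mean in STAM-NON. Limma called none, with 4 at an unadjusted p under 0.05, where 35.8% of all probes were. The largest differences were -0.62 for the transthyretin gene Ttr (limma adjusted p 0.0849) and -0.39 for the retinol carrier Rbp4 (limma adjusted p 0.0620). With insulin 7 of the 8 had a higher mean than in STAM-NON, with Apoa1 at 0.45 (limma adjusted p 0.688) and Ttr at 0.26 (limma adjusted p 0.776). Limma called none of the 8 for STAM-INS against STAM-NON, with 0 at an unadjusted p under 0.05. It called none for STAM-INS against Normal, with 1, Rbp4 (-0.31), at an unadjusted p under 0.05, where 32.5% of all probes were. The largest differences there were -0.47 for Serpina6 and -0.35 for Ttr.

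Upstream of the members, 19 of 21 genes of interleukin-6, interleukin-1 and TNF signalling could be tested. Il6 and Tnf themselves did not pass the filter on dim probes, so their differences were not tested. Il6 was well above background on 2 of 3 STAM-NON, 2 of 3 STAM-INS and 0 of 3 Normal arrays. For Tnf it was 2 of 3 STAM-NON, 1 of 3 STAM-INS and 0 of 3 Normal arrays. Socs3, the feedback inhibitor that STAT3 induces, read 1.72, 0.86 and 0.90 in Normal mice 1 to 3, 2.05, 2.73 and 2.04 in STAM-NON, and 2.77, 2.64 and 2.95 in STAM-INS mice. Both STAM groups lay above the Normal mice, by 1.11 in STAM-NON (limma adjusted p 0.0317) and 1.62 in STAM-INS (limma adjusted p 0.00993). For STAM-NON against Normal, limma also called the oncostatin M receptor Osmr higher by 1.31 (limma adjusted p 0.0429) and the interleukin-1 co-receptor Il1rap lower, at -1.05 (limma adjusted p 0.0348). In STAM-INS against Normal the NF-κB inhibitor Nfkbia fell by 0.71 (limma adjusted p 0.0167). Limma called none between the STAM groups, with 1, the NF-κB subunit gene Rela (0.26), at an unadjusted p under 0.05. The largest differences were 0.72 for Il1b and 0.63 for Il1r1. The list's median was 0.040 for STAM-NON against Normal, and its range ran from -1.05 to 1.31.

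Of 14 receptors and binding partners of the members, 12 were tested. For STAM-NON against Normal, limma called 4 of 12 higher and none lower: Slc22a17, a lipocalin 2 receptor, by 0.77 (limma adjusted p 0.0243), Tlr2 by 1.06 (limma adjusted p 0.0159) and Cd36 by 1.38 (limma adjusted p 0.0243), both of which can bind serum amyloid A, and the Fc receptor Fcgr1, which binds pentraxins, by 1.33 (limma adjusted p 0.0178). Fcgr1 and Tlr2 were called for STAM-INS against Normal as well, by 1.57 and 1.27. Between the STAM groups limma called none, with 1, Slc22a17 (-0.42), at an unadjusted p under 0.05. There the haptoglobin receptor Cd163 differed by -0.88 (detected on 2 of 3 STAM-INS arrays) and Lrp2, another lipocalin 2 receptor, by 0.54 (detected on 2 of 3 STAM-NON arrays), with 95% intervals that held 0.

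Markers of other cells were measured beside the members. Of 8 biliary and progenitor markers 6 were tested, and limma called Krt7 by 1.55 (detected on 1 of 3 Normal arrays), Spp1 by 1.50 and Sox9 by 0.96 higher for STAM-NON against Normal, with the list's mean level from -1.37 to -0.70 in STAM-NON, -1.20 to -0.90 in STAM-INS and -2.20 to -1.48 in Normal mice. Sox9 was called for STAM-INS against Normal too, by 1.57, and limma called none between the STAM groups, with 2 at an unadjusted p under 0.05 and 0.61 for Sox9 and 0.48 for Cftr. Of 10 hepatocyte markers, only the urea cycle gene Cps1 was called, -0.67 in both STAM groups against Normal, and the list's mean was 8.13 to 8.47 in STAM-NON, 8.22 to 8.39 in STAM-INS and 8.53 to 8.61 in Normal mice. Between the STAM groups limma called no hepatocyte marker, with 0 at an unadjusted p under 0.05, and the largest differences were -0.50 for Pck1 and 0.45 for Apoa1. Among 5 adipocyte markers only Cfd was tested (detected on 2 of 3 STAM-INS arrays), and it differed by 1.43 for STAM-NON against Normal, -1.15 for STAM-INS against STAM-NON and 0.28 for STAM-INS against Normal, with no call. For neutrophil markers between the STAM groups limma called none, with 0 at an unadjusted p under 0.05, and Prtn3 differed by 1.87 and Camp by -0.87. The part of these cells in the members' values was not tested.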

How the data were processed

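Per the file headers, the deposited files were the spot tables that Agilent Feature Extraction 11.5.1.1 wrote for 9 one-colour Cy3 arrays (SurePrint G3 mouse, designed on mm9), with the background-subtracted intensity of each spot and no normalisation between arrays. Accessions were named through RefSeq on GRCm38.p6, which matched 27656 of 55681 probes. The members and gene lists were chosen with earlier results of these data known. Control spots and spots flagged as outliers were left out, spots of a probe were averaged, and log2 intensity was centred on the 75th percentile of each array. A probe was tested if 0.5 or more of its spots were well above background on all 3 arrays of a group. The 3 groups were compared in 1 fit to all 9 arrays, with 6 residual degrees of freedom, in limma 3.58.1 under R 4.3.3 (lmFit and eBayes, two-sided), after a test on simulated data. Precision is limited by 3 arrays per group. Where a gene was not well above background in a group, a bound was computed against the dimmest detected signal of each array. Named genes were all members, up to 6 called genes per list and comparison (the 2 largest differences if none was called), and the 5 genes closest to Lcn2. Alternatives were other background correction (normexp on the median spot and background intensities with an offset of 50, since no mean intensity was present), scalings, filters, blocks, tests and left-out mice. The methods' t-test, which the study states for comparisons of 2 groups in general and not for the arrays, was run per probe, unpaired, two-sided and with equal variances.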

Additional observations from a re-analysis of the deposited data

How the results depend on the processing

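For STAM-NON against Normal, 2 members were called in the chosen setting, 4 after normexp, 4 at an adjusted p under 0.1, 4 by the methods' t-test unadjusted and 0 after adjustment, 0 with no filter on dim probes, and 0 with slide row as a block. Over all 26278 probes the counts were 4220, 4700, 7533, 7534 and 30 in the same order. They were 250 with no filter, where more probes were tested, and 15 with slide row as a block. With 1 mouse left out the member count was 0 to 3, at 0 without Normal 1 or 3 and at 1 without STAM-NON 3, STAM-INS 3 or Normal 2. Of all probes, 874 to 6185 were called in these fits. For STAM-INS against STAM-NON the member count of 0 became 2 by the methods' t-test unadjusted, where 1498 of all probes were called. It was 0 whichever mouse was left out. For STAM-INS against Normal the 5 calls became 3 with no filter, 3 with slide row as a block, 3 with the replicate block, 3 by the methods' t-test after adjustment, and 3 to 5 with 1 mouse left out, at 3 without any STAM-INS or Normal mouse. Settings with a mouse left out had fewer mice, and the setting with no filter tested more probes. The cause of these changes in count was not tested. Replicate numbers did not pair the mice: deviations of same-numbered mice correlated at -0.29 to 0.15, 1 of 9 pairs was above 0.1, and 1 array correlated best with its own number. The replicate block gave 3, 0 and 3 member calls and 2016, 6 and 1872 calls over all probes, against 4220, 24 and 3647 without it. Calls of listed genes for STAM-NON against Normal were lost under 15 of 23 alternatives for Spp1, 14 for Cd14 and Osmr, and 12 for Il1rap and Cps1. They were lost under 11 for Clec4f, 10 for Socs3 and Slc22a17, 9 for Cd5l, 8 for Fcgr1, 7 for Cd36, 5 for Tlr2 and Sox9, and 3 for Trem2. Of 22, the losses were 17 for Il1rn, 9 for Krt7 and 8 for Gpnmb. For STAM-INS against Normal, they were 13 of 23 for Cd5l and Clec4f, and 11 for Cd14 and Cps1.

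Over all probes the counts for STAM-NON against Normal, STAM-INS against STAM-NON and STAM-INS against Normal were 250, 7 and 571 with no filter, 15, 13 and 2157 with slide row as a block, and 7534, 1498 and 8811 by the methods' t-test unadjusted. Adjusted, that test gave 30, 1 and 2828. Spike-in centring gave 2289 and 2128 calls against Normal, and an adjusted p under 0.1 gave 7533 and 6369. A fit to only the arrays of the groups compared gave 2180 calls for STAM-NON against Normal and 8 between the STAM groups, where probes above background on all arrays gave 6. With 1 mouse left out the ranges were 874 to 6185, 10 to 57 and 1172 to 4495. Of the calls for STAM-NON against Normal, 1655 were higher and 2565 lower, which became 2077 and 1064 with the percentile over detected probes, 1571 and 718 with spike-ins, 1537 and 1425 with quantile normalisation, 1313 and 3387 after normexp and 1086 and 2049 with median centring. The median of all probes moved by 0.16, 0.15, 0.098, 0.014 and -0.15 in that order, and member differences are relative to it.

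Differences that changed sign were all uncalled. Median centring gave Orm1 -0.00082 and Hp -0.048 for STAM-NON against Normal, where Orm1 also ran from -0.10 (without STAM-NON 3) to 0.50 with 1 mouse left out. For STAM-INS against STAM-NON, slide row as a block gave Saa4 -0.12, Orm2 -0.025, Orm3 -0.33, Il1r1 -0.24, Gpnmb 0.25 and Cfd 0.34, and normexp gave Lrp2 -0.017. In the same comparison, leaving out 1 mouse gave -0.052 to 0.68 for Saa3, -0.0038 to 0.43 for Ttr and -0.29 to 1.61 for Lrp2, each lowest without STAM-NON 1. It gave -0.51 (without STAM-NON 2) to 1.98 for Mt2, -1.63 to 0.60 (without STAM-NON 3) for Camp, and, both lowest without STAM-INS 2, -0.083 to 1.54 for Lcn2 and -0.053 to 1.73 for Orm3. With slide row as a block Cfd was -0.81 in STAM-NON and -0.47 in STAM-INS livers against Normal ones, and the latter ran from -0.47 to 1.36 with 1 mouse left out, at -0.47, -0.049 and -0.36 without STAM-INS 1, STAM-INS 3 and Normal 1.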
